A study of Mus musculus with 18 samples.

Results

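The 3 peroxisome proliferator-activated receptors (Ppara, Ppard and Pparg), the 3 retinoid X receptors (Rxra, Rxrb and Rxrg) and the 2 PGC1 coactivators (Ppargc1a and Ppargc1b) were located in maps of lamina-associated chromatin and of Foxa2 binding in mouse liver. These 8 genes were chosen by name out of 21951 protein-coding genes of GENCODE, with earlier results of these data known. Each gene was given a window made of its gene body and 50 kb on both sides, and the window was intersected with 6 lists of called regions. The lists came from ChIP-Seq of C57BL/6 livers and held lamin B1 and H3K9me3 in young (3 months) and old (21 months) wild-type mice, and Foxa2 in Zmpste24 KO males and wild-type littermates, both aged 12 weeks. The genotype was taken from the sample titles, since the protocol text attached to all samples speaks of wild-type mice. The study used 2 replicates for each antibody and age and 3 for each Foxa2 genotype. Zmpste24 encodes the metalloprotease that matures prelamin A, and the null mice serve as a model of a disturbed lamina. The animals that aged and the animals that carried the mutation were different mice, so a domain of one set and a site of the other were never measured in the same liver.

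The authors merged the replicates before calling regions, and the lists hold positions with no signal, score or read count. A region was therefore present or absent in 1 list per condition, no spread between livers could be computed, and no test between conditions was possible. Counts of members are given beside the share of all protein-coding genes that met the same criterion. The median window of the members was 178 kb long, against 117 kb over all genes, and a longer window has more room for a region. The lamin B1 lists held 1624 young and 1519 old domains that covered 466 and 930 Mb. The H3K9me3 lists held 2784 young and 2496 old regions that covered 576 and 617 Mb, and the Foxa2 lists held 4960 wild-type and 8177 mutant sites. The H3K9me3 lists do not hold the numbers of regions that the study's text states, and whether they were merged or filtered is not given in the sources used here, so every H3K9me3 share, edge or absence refers to the lists as deposited. In the study the merged old lamin B1 library was shallower than the young one, the old H3K9me3 library was deeper than the young one, and mutant Foxa2 reads were sampled down to the wild-type number. The part of these depths in the differences was not tested. The input for Foxa2 came from wild-type livers. The tissue was a piece of whole liver, so a domain present in some cell types and one present in all cannot be told apart.

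PPARs are nuclear receptors for fatty acids and their derivatives, and each binds DNA as a heterodimer with an RXR on a direct repeat of the half-site AGGTCA with a single base between the copies, known as DR-1. The PGC1 proteins do not bind DNA themselves and are recruited by PPARs and other nuclear receptors, which they couple to the transcription machinery. In liver, PPAR alpha runs fatty acid oxidation in fasting, PGC1 alpha supports gluconeogenesis and mitochondrial programmes, and PPAR gamma, a master regulator of fat cells, is normally low and is associated with lipid storage when it is high. Lamin B1 lies under the nuclear envelope and H3K9me3 marks heterochromatin, both usually found over silent chromatin. Foxa2 is a forkhead pioneer factor of hepatocytes.

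The stretches below are the Foxa2 sites that the description turns on. They are shown because a reader can see there what the sites at the receptor genes hold, and how the sites of both genotypes at Ppara and those at Pparg differ in their letters. Each is 200 bases from inside a called site, centred on the forkhead word nearest its midpoint, or otherwise on DR-1 or on the midpoint itself, and moved where needed to stay inside the site. The promoter is the 250 bases before the start of the transcript Pparg-201, from RefSeq. All are on the plus strand of GRCm38 (mm10), 5′ to 3′, and capitals mark TGTTTAC or TGTTTGC (forkhead) and DR-1 with up to 2 mismatches. Sites that lie in exons, and those of Ppargc1b, are described without sequence.
Ppara, first wild-type site, chr15:85747376-85747575: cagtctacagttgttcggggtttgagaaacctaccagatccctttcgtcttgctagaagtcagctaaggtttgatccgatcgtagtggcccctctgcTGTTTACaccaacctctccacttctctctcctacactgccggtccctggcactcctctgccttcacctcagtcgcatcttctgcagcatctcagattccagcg
Ppara, second wild-type site, chr15:85771724-85771923: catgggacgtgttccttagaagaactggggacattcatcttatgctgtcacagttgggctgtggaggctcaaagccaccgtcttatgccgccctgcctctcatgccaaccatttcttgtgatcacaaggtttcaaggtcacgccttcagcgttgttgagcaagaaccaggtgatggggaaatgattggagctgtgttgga
Ppara, mutant site, chr15:85742958-85743157: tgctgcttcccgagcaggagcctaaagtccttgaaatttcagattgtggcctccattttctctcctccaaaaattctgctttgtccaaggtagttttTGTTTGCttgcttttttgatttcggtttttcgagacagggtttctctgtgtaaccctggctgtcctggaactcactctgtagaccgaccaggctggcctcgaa
Ppard, wild-type site, chr17:28185280-28185479: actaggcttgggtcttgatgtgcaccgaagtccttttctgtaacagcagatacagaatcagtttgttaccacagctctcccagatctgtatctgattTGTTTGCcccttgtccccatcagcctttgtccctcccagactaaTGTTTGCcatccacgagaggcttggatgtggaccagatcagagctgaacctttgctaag
Rxra, wild-type site, chr2:27640051-27640250: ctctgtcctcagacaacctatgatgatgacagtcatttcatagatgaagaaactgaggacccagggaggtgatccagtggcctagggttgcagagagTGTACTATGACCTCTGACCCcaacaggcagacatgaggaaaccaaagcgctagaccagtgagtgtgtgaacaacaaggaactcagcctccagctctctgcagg
Pparg, promoter of Pparg-201, chr6:115421816-115422065: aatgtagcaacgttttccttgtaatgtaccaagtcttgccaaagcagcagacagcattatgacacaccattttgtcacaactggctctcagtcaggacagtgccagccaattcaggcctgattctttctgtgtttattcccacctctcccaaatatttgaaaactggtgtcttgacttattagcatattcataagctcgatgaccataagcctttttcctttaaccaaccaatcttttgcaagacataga
Pparg, second mutant site, chr6:115465420-115465619: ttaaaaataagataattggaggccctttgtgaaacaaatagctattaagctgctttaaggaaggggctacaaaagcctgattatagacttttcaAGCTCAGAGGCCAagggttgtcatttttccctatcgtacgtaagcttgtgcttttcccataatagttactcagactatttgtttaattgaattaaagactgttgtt
Pparg, last mutant site, chr6:115466720-115466919: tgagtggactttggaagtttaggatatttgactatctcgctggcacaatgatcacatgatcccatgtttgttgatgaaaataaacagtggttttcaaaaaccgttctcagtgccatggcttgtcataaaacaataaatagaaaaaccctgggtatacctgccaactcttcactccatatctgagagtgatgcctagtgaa

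A forkhead word stood in the first wild-type stretch of Ppara, as TGTTTAC, and in its mutant stretch, as TGTTTGC. Neither form was found in the other 2 wild-type sites of Ppara, of which the second is printed and the last lies in an exon. The Ppard stretch held TGTTTGC at 2 places. The Rxra stretch held no forkhead word but 2 overlapping DR-1 matches on the minus strand, with 1 and 2 mismatches. In the Pparg promoter neither word was found. The second Pparg site held a DR-1 match with 2 mismatches, and the stretch of the last site held neither word. A match describes the letters and is not evidence that a factor was bound to them. Only TGTTTAC and TGTTTGC were searched as forkhead words, so a stretch without them may still hold another form of the motif.

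Lamin B1 domains lay over more of the receptor genes in old than in young livers. In young livers a domain touched the windows of 4 of the 8 genes (Ppard, Pparg, Rxrg and, at the edge, Ppargc1b), against 44.4% of all protein-coding genes. In old livers 7 of 8 windows were touched, all but that of Ppargc1a, against 68.5% of all genes. The covered share of the window was higher in old livers for 5 members (44.2% of all genes), lower for 1 member, Pparg (9.57%), and equal for Rxrg and Ppargc1a (46.3%). Windows of 2 members were covered wholly in young livers (21.8% of all genes) and those of 6 members in old livers (49.6%). A share higher by at least 50 points in old livers was found for 4 members (29.5% of all genes) and a share lower by as much for 1 (3.41%). The mean covered share of the member windows was 34.7% at 3 months and 81.0% at 21 months, and over all genes it was 34.8% and 61.1%. Gene starts lay in a domain for 3 members in young livers (36.0% of all genes) and for 6 in old livers (62.2%).

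H3K9me3 regions also touched more members in old livers. Windows of 2 members, Ppara and Rxrg, were touched in young livers (25.6% of all genes) and those of 5 members, all 3 RXR genes with Ppara and Ppard, in old livers (41.6%). The covered share was higher in old livers for 4 members (32.9% of all genes), lower for Ppara alone (13.1%) and 0 at both ages for Pparg, Ppargc1a and Ppargc1b (10976 of all genes had no region at either age). No window was covered wholly in young livers (3.86% of all genes), and those of Rxrb and Rxrg were in old livers (10.4%). The share was higher by at least 50 points in old livers for 3 members (17.2% of all genes) and lower by as much for none (4.79%). Starts of 2 members lay in a region at each age, Ppara and Rxrg in young (12.9% of all genes) and Rxrb and Rxrg in old livers (24.3%). The Rxrg start was 1.62 kb from the edge of the young region. The plot of covered share shows that Pparg for lamin B1 and Ppara for H3K9me3 went against the direction of the other members that differed.

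**Figure D1:**
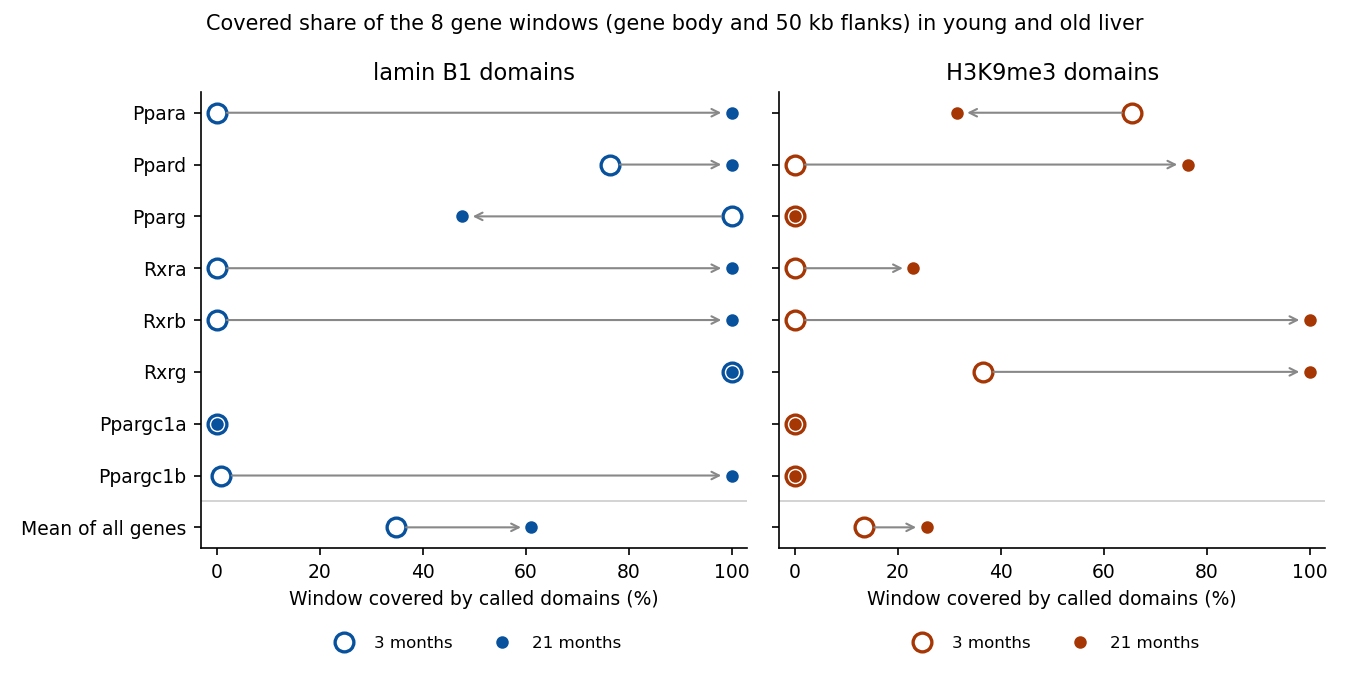
Share of each gene window (gene body and 50 kb flanks, in percent) covered by lamin B1 domains (left) and H3K9me3 regions (right) in livers aged 3 months (open circles) and 21 months (filled circles), with arrows from young to old and the mean over 21951 protein-coding genes at the bottom; each value comes from 1 list of merged replicates, so there are no error bars. Pparg is the gene with a smaller share inside lamin B1 domains in old livers (100 to 47.7%). Ppara is the gene with a smaller share inside H3K9me3 regions (65.5 to 31.5%).

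Foxa2 sites were called in the windows of 4 members in each genotype, against 30.6% of all genes in wild-type and 38.5% in mutant livers. Ppara and Ppargc1b had sites in both genotypes (19.2% of all genes), Ppard and Rxra in the wild type alone (11.4%), Pparg and Ppargc1a in the mutant alone (19.3%), and Rxrb and Rxrg in neither (50.1%). Windows of 3 members held more mutant than wild-type sites (25.0% of all genes), and those of 3 held more wild-type sites (15.4%). At least 3 mutant sites were called at 2 members, Pparg and Ppargc1b (4.46% of all genes). The windows held 7 wild-type and 8 mutant sites, or 0.875 and 1.00 per gene, against 0.452 and 0.596 per gene over all protein-coding genes. Of these, 1 site in each list overlapped a site of the other genotype, where 27.2% of all wild-type and 16.7% of all mutant sites did. None of the 15 sites held the outermost start of a member, which 2.06% of all genes had in wild-type and 1.22% in mutant sites.

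**Figure D2:**
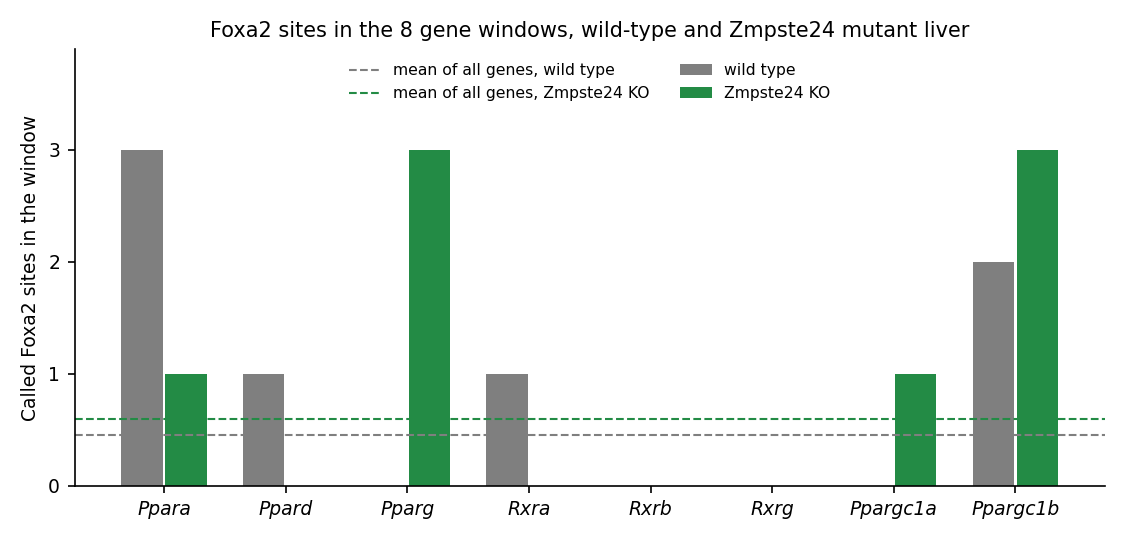
Number of called Foxa2 sites in each gene window in wild-type (grey) and Zmpste24 KO (green) livers, with the mean number per window over 21951 protein-coding genes as dashed lines; each bar comes from 1 list of merged replicates, so there are no error bars. Ppara had 3 wild-type sites and 1 mutant site, Pparg had 0 and 3, and Ppargc1b had 2 and 3.

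Pparg, on the plus strand of chromosome 6 from 115360951 to 115490399, was the receptor gene that lay wholly in a lamin B1 domain in young livers and largely outside one in old livers. In young livers a single domain of 1040 kb, from 114640001 to 115680000, covered all 229 kb of its window. In old livers there were 2 domains, from 115230001 to 115350000 and from 115470001 to 116050000, which left 120 kb between them uncovered. This gap ran from 11.0 kb before the outermost Pparg start to 109 kb after it, and the covered share of the window was 47.7% in old against 100% in young livers. Within the gene body it was 15.8% against 100%. All 7 annotated Pparg transcripts started inside the young domain and outside the old domains. Of 4788 genes whose window was fully covered in young livers, 6.64% had a covered share at least 50 points lower in old livers. No H3K9me3 region reached the window at either age, and the nearest lay 891 kb from the gene in young and 190 kb in old livers.

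Of Foxa2 sites, Pparg had 0 in wild-type and 3 in mutant livers, a combination of at least 3 mutant and 0 wild-type sites that 1.00% of all genes had. The nearest wild-type site was 199 kb away from any of them. The first mutant site, from 115421428 to 115422314, contained the start of Pparg-201 at 115422066, which lay 195 bp from the midpoint of the site. The midpoint was 60.9 kb inside the gene, and this transcript encodes the longer PPAR gamma isoform, Pparg2, best known from fat cells. The 250 bases of promoter printed above lie wholly inside this site. The other sites, at 115465118 to 115465956 and 115466220 to 115467420, were in introns, 43.5 and 44.8 kb beyond that start. They were 263 bp apart, so they may count a single stretch as 2 sites.

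All 3 mutant sites at Pparg lay inside the young lamin B1 domain and in the gap between the old ones, a position that 6.57% of all mutant sites and 5.69% of all wild-type sites had. The first was 47.7 kb from the nearest old domain. The second and the third were 4.04 and 2.58 kb from its edge, less than the 10 kb windows in which the domains were called, so their side of that edge is at the limit of the resolution. The map of the Pparg window shows the gap, the sites and the transcript starts.

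**Figure D3:**
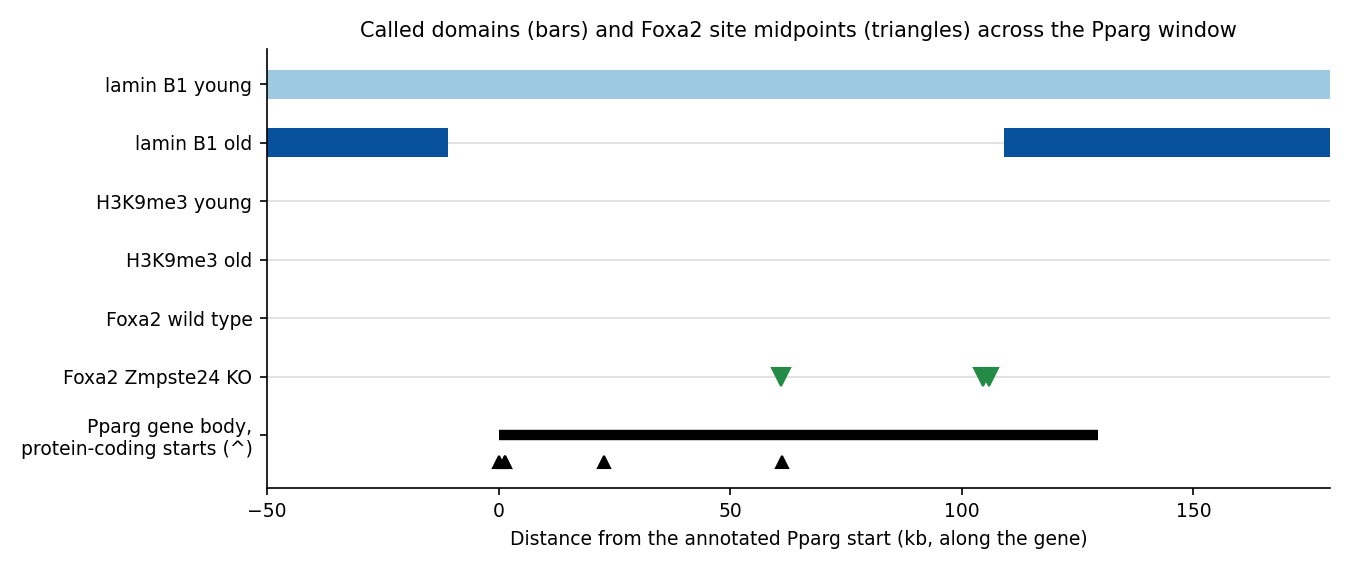
Called lamin B1 and H3K9me3 regions (bars) and Foxa2 site midpoints (downward triangles) across the Pparg window, against the distance from the outermost Pparg start in kb, with the gene body as a black bar and starts of protein-coding transcripts as upward triangles; each row is 1 list of merged replicates. The 3 mutant Foxa2 sites lie in the stretch from -11.0 to 109 kb that young but not old lamin B1 domains covered, and the first of them lies at a protein-coding start.

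Ppara, on the plus strand of chromosome 15 from 85734983 to 85802819, encodes the PPAR that drives fatty acid oxidation in hepatocytes, and its values went the other way for lamin B1. No young lamin B1 domain lay within 745 kb of the gene. In old livers the whole window was inside a domain of 1990 kb, from 85130001 to 87120000, which held the starts of 16 protein-coding genes. Of 12212 windows without young lamin B1, 34.3% were fully covered in old livers. H3K9me3 instead covered 65.5% of the window in young and 31.5% in old livers, and within the gene body 100% and 4.16%. The young region, from 85720001 to 85830000, was 110 kb long and spanned the 67.8 kb gene with sequence on both sides. It ran from 15.0 kb before the outermost start to 95.0 kb after it, and held the starts of 3 protein-coding genes, Ppara among them. The old region began at 85800001, in the last part of the gene, and ran 2920 kb downstream, so that all 6 annotated Ppara transcripts started inside the young region and outside the old one. With flanks of 100 kb the shares were 41.1% and 38.4%, because the old region filled more of the longer downstream flank.

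Ppara had 3 wild-type Foxa2 sites and 1 mutant site, and 2.97% of all genes had at least 3 wild-type sites. No wild-type site overlapped the mutant one. The wild-type site at 85746837 to 85748411 was intronic, 12.6 kb after the outermost start. The site at 85771308 to 85772339 contained the start of the noncoding transcript Ppara-205, at 85772214. The site at 85776872 to 85778276 covered an exon that is 5′ untranslated sequence of the coding transcripts. The mutant site, at 85742572 to 85743398, was intronic, 6.85 kb after the nearest protein-coding start and 3.44 kb from the nearest wild-type site. All 4 sites lay inside the young H3K9me3 region and inside the old lamin B1 domain, and outside the regions of the other age of each mark. Of all sites, 19.4% of the wild-type and 21.6% of the mutant ones lay in young H3K9me3.

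**Figure D4:**
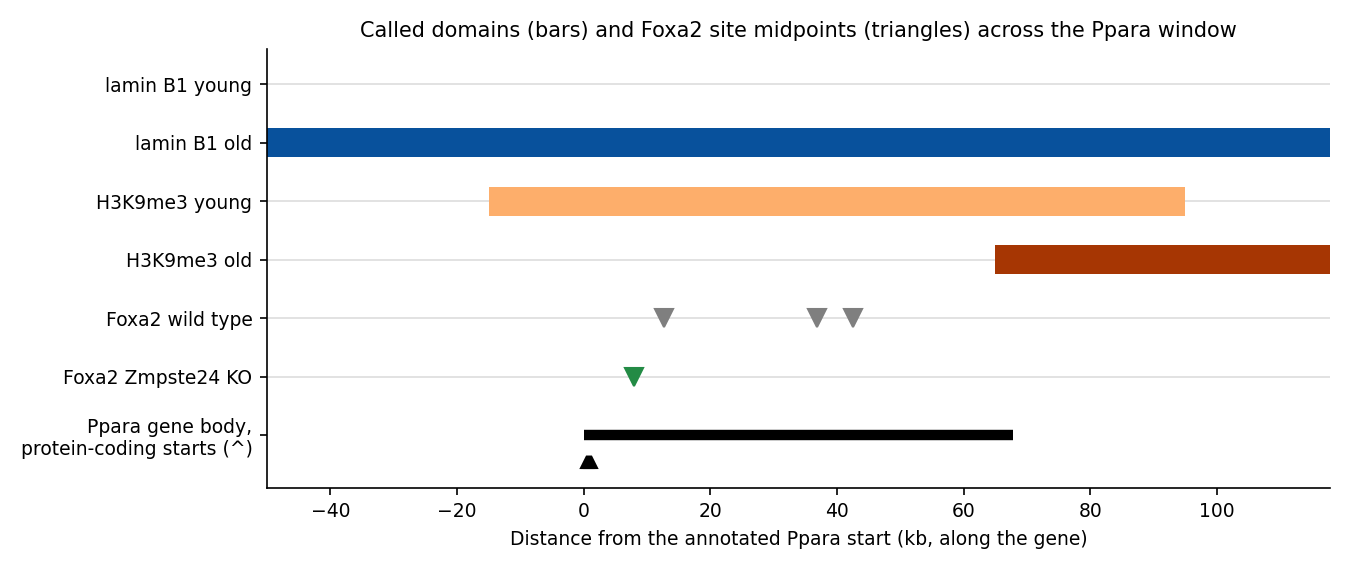
Called lamin B1 and H3K9me3 regions (bars) and Foxa2 site midpoints (downward triangles) across the Ppara window, against the distance from the outermost Ppara start in kb, with the gene body as a black bar and starts of protein-coding transcripts as upward triangles; each row is 1 list of merged replicates. The gene body lies in the young but almost wholly outside the old H3K9me3 region, and lamin B1 covers the window in old livers alone.

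Ppard, on chromosome 17 from 28232700 to 28301474, encodes the broadly expressed PPAR delta. Young lamin B1 domains covered 76.3% of its window, as 2 domains with a 40 kb gap inside the gene, from 28250001 to 28290000. The old domain covered it wholly and was 6160 kb long, with 191 coding gene starts. H3K9me3 covered none of the window in young and 76.3% in old livers, again with a 40 kb gap, from 28210001 to 28250000, which held the Ppard start. The 2 shares of 76.3% are equal because each gap was 4 windows of 10 kb, and the gaps adjoined without overlapping. The single Foxa2 site was a wild-type one at 28184546 to 28185567, in an intron of the neighbouring gene Zfp523 and 47.6 kb before Ppard.

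Rxra, on chromosome 2 from 27676440 to 27762957, encodes the main RXR of liver. It lay 1257 kb from the nearest young lamin B1 domain and wholly inside a domain of 7440 kb in old livers, from 26780001 to 34220000, with 143 coding gene starts. The domain was thus far longer than the gene and held many of its neighbours. H3K9me3 covered no part of the window in young and 23.0% in old livers, and the old region began 7.04 kb past the end of the gene. A wild-type Foxa2 site lay between genes, at 27639581 to 27640250, 36.5 kb before the start. The nearest mutant site was 14.2 kb away from it, outside the window.

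Rxrb, on chromosome 17 from 34031812 to 34038399 among genes of the major histocompatibility complex, encodes the widely expressed RXR beta. Its window was free of lamin B1 and H3K9me3 in young livers and wholly covered by both in old livers. The old lamin B1 domain was 1470 kb long and held 98 coding gene starts, and the old H3K9me3 region was 200 kb long and held 15. A young H3K9me3 region lay 51.6 kb from the gene, just beyond the window. Rxrg, on chromosome 1 from 167598384 to 167639623, encodes the RXR best known from muscle and brain. Lamin B1 covered its window wholly at both ages. The young domain ended at 167690000, just past the end of the window at 167689623. With flanks of 100 kb the lamin B1 shares were 79.4% in young and 100% in old livers. H3K9me3 covered 36.5% of the Rxrg window in young and 100% in old livers. The young and old regions began at the same position, 167530001, and the young one ended 1.62 kb after the Rxrg start while the old one ran through the gene. Thus the gene body was covered by 3.92% in young and 100% in old livers. Edges are known to 10 kb, so whether the Rxrg start lay inside the young region is at the limit of the resolution. The start of the coding transcript Rxrg-202 lay outside the young region. No Foxa2 site was called in the windows of Rxrb and Rxrg in either genotype.

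Ppargc1a, on the minus strand of chromosome 5 from 51454250 to 51567726, encodes PGC1 alpha and was the member free of all 4 lamin B1 and H3K9me3 lists, as were the windows of 18.8% of all genes. The nearest regions, of old lamin B1 and young H3K9me3, lay upstream, 622 kb from the gene in its GENCODE bounds. The RefSeq bounds add distant upstream starts, run to 52115853 and make the gene 662 kb long. These regions are thus far closer to the gene in RefSeq bounds. The window with RefSeq bounds still touched none of the 4 lists, but it held 3 mutant Foxa2 sites in place of 1. In the main window the Foxa2 site was a mutant one, from 51456623 to 51457318. It overlapped the last exon of Ppargc1a-203, in the 3′ untranslated region and 111 kb from the outermost start. A mutant Foxa2 site with none of the other 5 lists in the window was found for 2.80% of all genes.

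Ppargc1b, on the minus strand of chromosome 18 from 61298136 to 61400431, encodes PGC1 beta. Young lamin B1 covered 0.922% of its window, at the far end, and old lamin B1 covered all of it in a domain of 1100 kb. No H3K9me3 region touched it at either age. The wild-type sites lay in an intron, 87.0 kb after the start, and 37.8 kb before the start. Mutant sites lay 36.5, 37.5 and 42.6 kb before it, so that 4 of the 5 sites stood together upstream. There the wild-type site overlapped 1 mutant site and was 466 bp from another. These were the only sites of any member shared by the genotypes. All 5 sites lay inside the old and outside the young lamin B1 domains.

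Read by the chromatin around them, all 7 wild-type sites of the members lay in old lamin B1 domains (63.5% of all wild-type sites), and 6 of these in old but not young domains (33.7%). Old H3K9me3 regions held 1 of them, at Ppard (22.9%), and none lay outside all domain lists (22.4%). Of the 8 mutant sites, 4 lay in old lamin B1 domains (49.2% of all mutant sites) and none in old H3K9me3 regions (22.4%). These 4 lay in old but not young domains (27.7%), while 3 lay in young but not old domains and 1 outside all domain lists (31.4%). Sites of the same gene share their domain, so the 15 sites stand for 6 genes and not for independent positions.

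The words of the forkhead, GATA, Sox and DR-1 motifs were searched on both strands in 900 bp centred on each site midpoint. TGTTTAC was found in 2 of the 7 wild-type sites (25.9% of all wild-type sites) and in 1 of the 8 mutant sites (22.7%). These were a Ppara site and the overlapping pair at Ppargc1b. AGATAA, the GATA word, was found in 2 wild-type sites (41.9%) and 4 mutant sites (46.9%), among them all 3 at Pparg. CCATTGT or CCTTTGT, the Sox word, was found in 4 wild-type (28.0%) and 4 mutant sites (28.7%). DR-1 with up to 2 mismatches was found in 2 wild-type sites, at Ppara and Rxra (15.9%), and in 3 mutant sites, at Pparg, Ppargc1a and Ppargc1b (13.8%). With up to 1 mismatch the 2 wild-type matches remained and no mutant one did, where 2.28% of wild-type and 2.02% of mutant sites held such a match. Of 32851 mouse promoters of 250 bases, 7.29% held either forkhead word and 3.24% a DR-1 match of up to 2 mismatches. In base composition the windows spanned most of the range of genes, from 39.5% G and C at Ppargc1a to 52.6% at Ppard, where the median of all genes was 44.3%.

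The other genes of these pathways were taken from 5 lists of 73 genes in all. Lamin B1 touched 41 of their windows in young and 63 in old livers (56.2 and 86.3%, against 44.4 and 68.5% of all genes). H3K9me3 touched 17 and 35 (23.3 and 47.9%, against 25.6 and 41.6%). Foxa2 sites touched 44 in wild-type and 51 in mutant livers (60.3 and 69.9%, against 30.6 and 38.5%). The shares of each list are drawn in the plot of windows touched. The covered share of lamin B1 was higher in old livers for 34 genes and lower for 8, and that of H3K9me3 was higher for 28 and lower for 8. For lamin B1 these are 46.6% and 11.0% of the lists, against 44.2% and 9.57% of all genes, and for H3K9me3 38.4% and 11.0%, against 32.9% and 13.1%. The median difference was 0 points for both marks in these 73 genes and over all genes. Some of these genes are neighbours and share a window, such as Plin4 with Plin5 and Acot1 with Acot4.

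The lists are described in turn, and differences between them were not tested. Over all genes, Foxa2 sites touched 30.6% of windows in wild-type and 38.5% in mutant livers, and H3K9me3 25.6% in young and 41.6% in old livers. The covered share of lamin B1 was higher in old livers for 44.2% of all genes and lower for 9.57%. That of H3K9me3 was higher for 32.9% and lower for 13.1%. Here and below, a mark called higher or lower is one whose covered share was so in old against young livers. Among 24 fatty acid oxidation and fasting targets of PPAR alpha, lamin B1 was higher for 11 (45.8%) and lower for 1 (4.17%). H3K9me3 was higher for 10 (41.7%) and lower for none. Foxa2 sites touched 16 of these windows in each genotype (66.7%), with 26 wild-type and 24 mutant sites. Acaa1b, a peroxisomal thiolase, had 0% of both marks in young and 100% in old livers. Crat, carnitine acetyltransferase, had 0% and 100% for H3K9me3 inside lamin B1 at both ages. Among 14 lipid uptake and storage targets of PPAR gamma, lamin B1 was higher for 9 and lower for 1, and H3K9me3 was higher for 2 and lower for 1. H3K9me3 touched 4 windows in young and 3 in old livers, and its mean covered share was 11.9% and 15.3%. Cidec, a lipid droplet protein gene, went from 0 to 100% for lamin B1 between 3 and 21 months. Mogat1, an acyltransferase of triglyceride synthesis, had 77.8% H3K9me3 in young and 0% in old livers. Foxa2 sites touched 10 of these windows in wild-type and 9 in mutant livers (71.4 and 64.3%), with 13 and 12 sites.

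Among 11 other receptors that pair with RXR, 5 had a Foxa2 site in wild-type and 9 in mutant livers (45.5 and 81.8%), with 6 and 17 sites. Lamin B1 was higher in old livers for 3 of them (27.3%) and lower for 2 (18.2%). H3K9me3 was higher for 4 (36.4%) and lower for 1 (9.09%). Nr1h4, the bile acid receptor FXR, had 0 wild-type and 4 mutant sites, and its H3K9me3 share was 49.8% in young and 3.22% in old livers. Thrb, a thyroid hormone receptor, had 0 and 3 sites and no domain of either mark. Rarb, a retinoic acid receptor, had a lamin B1 share of 55.1% in young livers and of 0% in old ones. Among 12 coactivators and corepressors, lamin B1 was higher in old livers for 5 (41.7%) and lower for 4 (33.3%). H3K9me3 was likewise higher for 5 (41.7%) and lower for 4 (33.3%). The median window of these 12 genes was 210 kb long, against 117 kb over all genes, which gives more room for a region or an edge. Foxa2 sites touched 9 of these windows in wild-type and 8 in mutant livers (75.0 and 66.7%), with 13 and 16 sites. Beside Rarb the largest losses of the 73 genes were in this list. They were at Ncoa1, a p160 coactivator, from 99.2 to 39.4%, and the corepressor Ncor1, from 100 to 46.3%. Ep300, a histone acetyltransferase, had 0 wild-type and 2 mutant Foxa2 sites.

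Among 12 partners and targets of PGC1, 4 had a Foxa2 site in wild-type and 9 in mutant livers (33.3 and 75.0%), with 6 and 11 sites. H3K9me3 touched 4 windows at 3 months and 9 at 21 months, the same shares. Its covered share was higher in old livers for 7 and lower for 2, and that of lamin B1 was higher for 6 and lower for none. Tfb2m, a mitochondrial transcription factor, had 0 wild-type and 2 mutant sites, and its H3K9me3 share was 94.7% in young and 1.65% in old livers. Gabpa, a regulator of mitochondrial genes, had 0% and 100% H3K9me3, and Cycs, cytochrome c, had 0% and 100% lamin B1. Hsd17b4, a peroxisomal enzyme of the PPAR alpha list, had 0 and 3 sites. No gene of the 5 lists had at least 2 wild-type and 0 mutant sites.

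**Figure D5:**
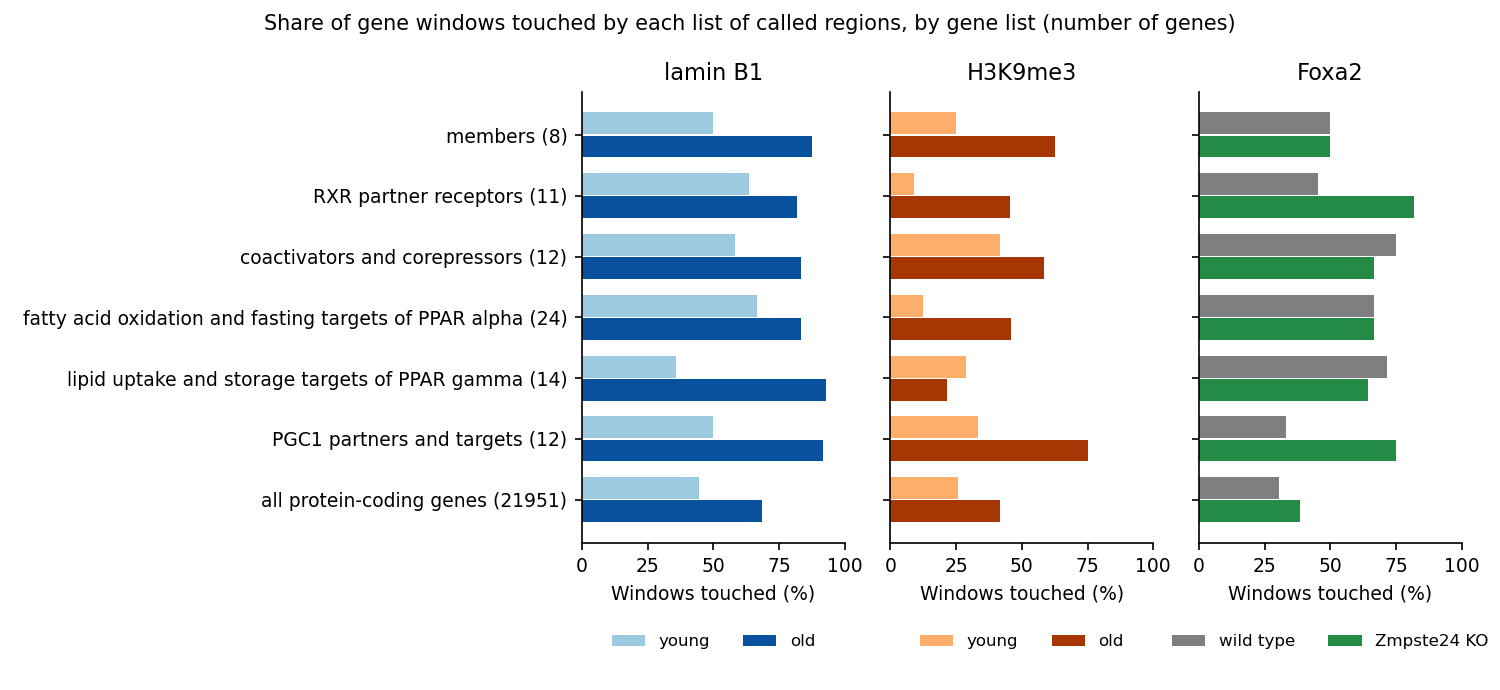
Percent of gene windows touched by lamin B1 domains (left, young and old), H3K9me3 regions (middle, young and old) and Foxa2 sites (right, wild type and Zmpste24 KO) for the 8 receptor and coactivator genes, the 5 pathway lists and all 21951 protein-coding genes, with the number of genes in parentheses; each bar comes from 1 list of merged replicates, so there are no error bars. Old lamin B1 touched more windows than young lamin B1 in every list drawn, and old H3K9me3 touched fewer than young only among the PPAR gamma targets.

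Genes with the combination seen at Pparg were sought over all chromosomes. The same presence or absence in the 6 lists as at Pparg was found for 788 genes in all (3.59%), and 174 genes away from Pparg had, like it, 0 wild-type and 3 mutant sites. Ranked by the distance of their 4 covered shares from those of Pparg, the most alike was Atm, the DNA damage kinase gene, whose lamin B1 shares were 100% at 3 months and 46.0% at 21 months, at a distance of 1.72 points. Nexn, an actin-binding protein gene, followed with 59.0% in old livers and 11.3 points, and Rc3h1, an RNA-binding protein gene, with 32.6% and 15.1 points. None of these had H3K9me3 at either age.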

How the data were processed

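ChIP-Seq of mouse liver was used as lists of called regions. The deposited values are genome positions (first and last base of each region) with no signal or score. According to the labels and the methods of the study, the authors used BWA for alignment to mm10 and Picard to discard duplicates, and they pooled the unique reads of the replicates before regions were called. Lamin B1 domains were called with Epic, an implementation of SICER, in windows of 10 kb with a gap of 3 windows. PeakSeq gave the Foxa2 sites, with input as the control. The caller of the H3K9me3 regions was not given in the sources used here, although the submitters' processing notes list SICER for the series, and their age was taken from the list names. H3K9me2 was not analysed here. Depth per sample is unknown from the lists.

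Genes came from GENCODE vM21, which uses the same build, and sequence from RefSeq GRCm38.p6. A window was touched at an overlap of at least 1 bp, covered shares are bases of the window inside regions, and a site lay in a domain when its midpoint did. The outermost annotated start was taken as the gene start. Words were searched in 4956 of the 4960 wild-type sites, those on assembled chromosomes, and in all mutant sites. No test was possible, because each condition is a single merged list. All 8 members were described. Of the 73 pathway genes, those with at least 2 sites in one genotype and 0 in the other were named, and for each mark the 3 genes with the largest gain and the 3 with the largest loss of covered share. Ties were taken in alphabetical order, of 19 genes that went from 0 to 100% for lamin B1 and 5 for H3K9me3. The members and lists were chosen with earlier results of these data known. RefSeq gene bounds, and other flanks for the pathway genes and the sites in domains, are alternatives chosen after seeing the data. Overlap and word counting was tested on simulated data. Python 3.11.15, numpy 2.4.6 and matplotlib 3.10.9 were used.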

Additional observations from a re-analysis of the deposited data

How the results depend on the processing

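No paired analysis was possible because every value comes from lists of merged replicates and from no test, and for the same reason no replicate could be left out. Of 118 recomputed counts, 94 stayed within 1.5 times the value given and 24 did not. Whether wild-type or mutant counts were the higher was not part of this rule. With gene bodies alone, wild-type Foxa2 sites touched 2 members and numbered 4, all 4 in old and 0 in young lamin B1 domains. Mutant sites then touched 3 members and numbered 5, of which 1 lay in an old domain. No site was then shared (0 in each list). Pathway genes touched were then 8 for young and 21 for old H3K9me3, 19 for wild-type and 23 for mutant Foxa2. With flanks of 100 kb there were 12 wild-type sites, all 12 in old lamin B1 domains, against 10 mutant sites. Wild-type sites were then the more numerous, unlike the 7 wild-type and 8 mutant sites of the main windows. In each list 3 sites were then shared. A flank of 10 kb left 2 members with wild-type and 3 with mutant sites. In windows of 50 kb around the gene start, 2 members had mutant and 4 had wild-type sites, and 3 had old H3K9me3. Taking only sites at least as wide as the median of their list left 2 members with mutant sites. A gap of up to 1 kb raised the shared mutant sites to 2. The forkhead word in either form was found in 4 wild-type and 3 mutant sites, and DR-1 with up to 1 mismatch in 0 mutant sites.

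Of 86 single values, 77 stayed within the range allowed, 9 moved beyond it and 0 changed sign. Differences of 0 in the main windows and shares of all genes could not change sign under this rule. The lamin B1 difference at Rxrg was 0 points in the main windows and 20.6 with flanks of 100 kb, and counted as within the range. For covered shares the range was an interval that counts each 10 kb as a separate observation, and it was wide. The H3K9me3 difference at Ppara was within it both at -34.1 points and, with flanks of 100 kb, at -2.68 points. At Rxra the H3K9me3 difference moved beyond it, from 23.0 points to 0 with the gene body alone. Removing 11 young and 23 old lamin B1 domains shorter than 50 kb altered no count of members. No H3K9me3 region was shorter than 20 kb, so this setting could not alter an H3K9me3 value. RefSeq gene bounds left the counts of members touched by Foxa2 at 4 in each genotype and gave 10 mutant sites in place of 8, both added ones at Ppargc1a. The lists give neither depth nor score, so a region missing from a list may lie just below the threshold of its caller, and edges of domains are known to 10 kb.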
